A study of Mus musculus with 10 samples.

Results

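Autophagy is the pathway by which a cell wraps part of its own cytoplasm in a new double membrane, the autophagosome, and delivers it to the lysosome for breakdown. It starts with the ULK kinase complex, continues with a class III phosphatidylinositol 3-kinase complex that marks the growing membrane, and needs ubiquitin-like conjugation reactions that attach the small ATG8 proteins (the LC3 and GABARAP families) to that membrane, where cargo receptors such as p62 bind them. In microglia, the resident macrophages of the brain, the pathway clears damaged organelles and ingested material. The 37 genes described here encode this core machinery and were listed by symbol, with no threshold on a measured change. All 37 matched a gene among the 46152 that were counted, 36 had a nonzero total count, and 33 were tested among the 28419 genes that exceeded 1 CPM in at least 3 of the 10 libraries. CPM is a gene's fragment count scaled to a common library total.

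The libraries hold RNA of CD11b+ brain cells, enriched with magnetic beads from perfused C57BL/6J mice aged 8 to 12 weeks. Vehicle mice (n = 5) received 0.1% Tween 80 and 0.5% hydroxymethyl propyl-cellulose by gavage, and GW2580 mice (n = 5) received the CSF1R kinase inhibitor GW2580 in that vehicle at 80 mg/kg per day, both for 8 days. Each group held 2 male and 3 female mice, with 1 library per mouse. CD11b is carried by monocytes and granulocytes as well as microglia, so the beads do not separate them. Between 12550418 and 26079343 fragments per library were assigned to genes. All 9 microglia markers were tested, and their summed level was 12090 to 27565 CPM with vehicle and 17038 to 56236 CPM with GW2580. Summed over 6 markers, the oligodendrocyte level was 15105 CPM in vehicle 2 and 3229 CPM in vehicle 5, against 86.5 to 1396 CPM in the other libraries. Most of this sum was Mbp, whose mean over the vehicle libraries was 3489 CPM of a summed mean of 3761 CPM. Vehicle 2 and vehicle 5 also led in the 6 astrocyte markers, with 672 and 610 CPM against 139 to 289 CPM. In the 6 neuronal markers they led with 431 and 184 CPM against 42.4 to 128 CPM. The 5 monocyte and granulocyte markers summed to 156 to 12769 CPM with vehicle, highest in vehicle 1, and to 154 to 3586 CPM with GW2580. The 4 endothelial markers summed to 31.3 to 60.1 CPM, with Cldn5 at 0 in all libraries, and the 4 border macrophage markers to 22.1 to 131 CPM. The annotation lists Cldn5 and the border macrophage marker Pf4 (16 fragments in all) on 2 sequences of the assembly. It lists the oligodendrocyte marker Mog (96 fragments) on 4. The counts of these 3 markers are not read as low expression. The microglia marker Olfml3 is also listed on 2 sequences and held 131861 fragments, so such a listing does not always empty a count. In such bulk samples, fewer cells of a type and less RNA per cell cannot be told apart.

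The 4 tested ATG8 genes had a median log2 fold change of -1.05, and the other role groups had medians from -0.20 to 0.41. This distance was not tested between groups. Without vehicle 2 and vehicle 5 the ATG8 median was -0.66 and that of the cargo receptors 0.77, and with the off-exon share of each library as a term they were -0.64 and 0.84. Of the 33 tested members, 2 were called lower, both ATG8 genes (Map1lc3a and Gabarapl2), and 0 were called higher. The rule for a call was an unadjusted p below 0.05 together with a more than 2-fold difference in edgeR's quasi-likelihood test. Over all 28419 genes the same rule called 6.7% lower and 4.01% higher, so 2 of 33 is near the background. No gene of the 28419, and so no member, passed a Benjamini-Hochberg adjusted p of 0.05 in this test, while 2 members and 4186 genes in all had an unadjusted p under 0.05. With other tools the number of genes past the adjusted threshold was 28 with edgeR's exact test, 53 with its likelihood ratio test, 232 with DESeq2 and 0 with limma-trend and limma-voom, and no member was among them. The median log2 fold change was 0.01 over the members and -0.03 over all genes tested.

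**Figure D1:**
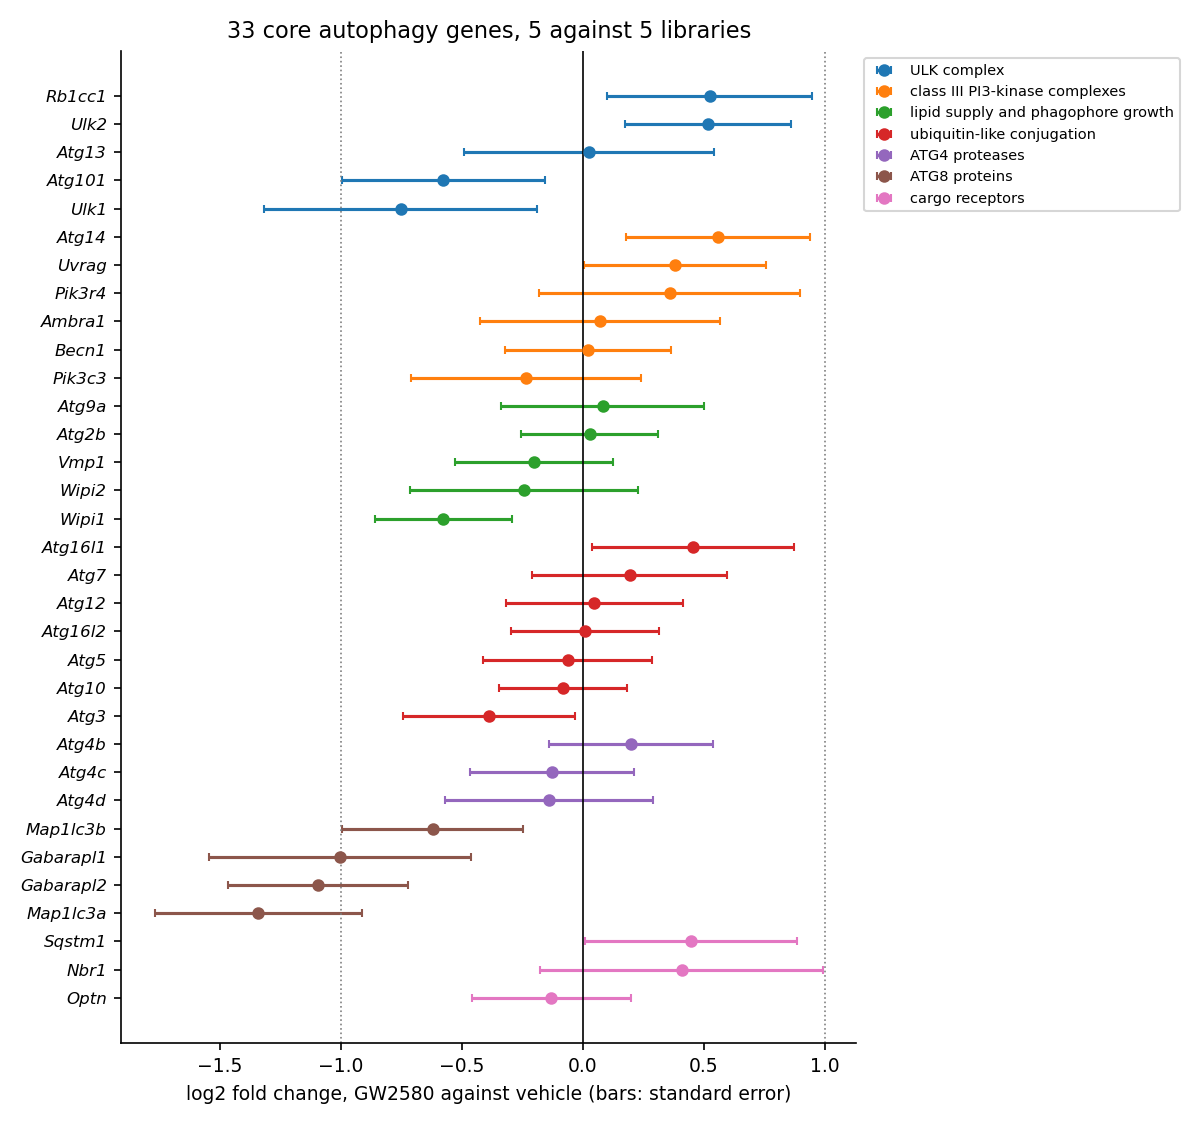
Log2 fold change of GW2580 against vehicle for each of the 33 tested members, grouped by role, with 5 libraries per group. Points are edgeR estimates and bars their standard errors. Dotted lines mark a fold change of 2. The 4 ATG8 genes lie between -1.34 and -0.62, and the others lie between -0.75 and 0.56.

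Of the ATG8 proteins, LC3A and LC3B (Map1lc3a, Map1lc3b) and the GABARAP-type proteins (Gabarap, Gabarapl1, Gabarapl2) are coupled to lipid in the autophagosome membrane and recruit cargo receptors there. Map1lc3a (gene ID 66734, chr2:155276364-155278073 in GRCm38) measured 146, 333, 188, 209 and 451 CPM in vehicle 1 to 5. In GW2580 1 to 5 it measured 65.6, 145, 159, 51.0 and 104 CPM. The highest vehicle values were those of vehicle 2 and vehicle 5, and 4 of the 5 GW2580 libraries lay below every vehicle library. The means were 265 ± 125 and 105 ± 47.4 CPM (SD, n = 5 each), a log2 fold change of -1.34 (SE 0.43, unadjusted p = 0.00722, adjusted p = 0.280, edgeR). The two-sided exact permutation test over all arrangements of the 10 libraries in groups of 5 gave p = 0.0159 (0.290 adjusted over all genes tested).

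Gabarapl2 (gene ID 93739, chr8:111940703-111952915), whose product is also called GATE-16, measured 84.6, 153, 103, 110.4 and 110.7 CPM in vehicle 1 to 5. Its values in GW2580 1 to 5 were 33.1, 67.9, 62.0, 22.7 and 78.1 CPM. All 5 GW2580 libraries lay below all 5 vehicle libraries, with a gap from 78.1 to 84.6 CPM. It was the 1 member of 33 whose groups did not overlap with lower values after GW2580, against 0.985% of all genes tested. The means were 112 ± 25.2 and 52.8 ± 23.7 CPM (SD, n = 5 each), a log2 fold change of -1.09 (SE 0.37, unadjusted p = 0.0107, adjusted p = 0.280, edgeR). The exact permutation p was 0.00794, the smallest that 5 against 5 libraries can give, and 0.262 after adjustment over all genes. A pseudogene named after Gabarapl2, Gm5829, held 32 fragments in all, against 12916 for the gene itself.

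The other 2 measured ATG8 genes were not called. Map1lc3b measured 419.5, 523, 304, 276 and 283 CPM in vehicle 1 to 5 and 160.3, 290.1, 327, 117 and 281 CPM in GW2580 1 to 5. Its groups overlapped, with GW2580 1 and 4 below every vehicle library, and the log2 fold change was -0.62 (SE 0.37, unadjusted p = 0.120, edgeR). Gabarapl1 measured 31.0, 122, 36.2, 35.9 and 210.1 CPM in vehicle 1 to 5, and 36, 46.8, 72.7, 35.9 and 25.4 CPM in GW2580 1 to 5. Its log2 fold change of -1.0 (SE 0.54, unadjusted p = 0.0844, edgeR) rested on vehicle 2 and vehicle 5, the libraries with the most oligodendrocyte, astrocyte and neuronal marker RNA. Without those 2 libraries it was 0.32, above 0. The fit without vehicle 1, 3 or 4 called it lower in each case.

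**Figure D2:**
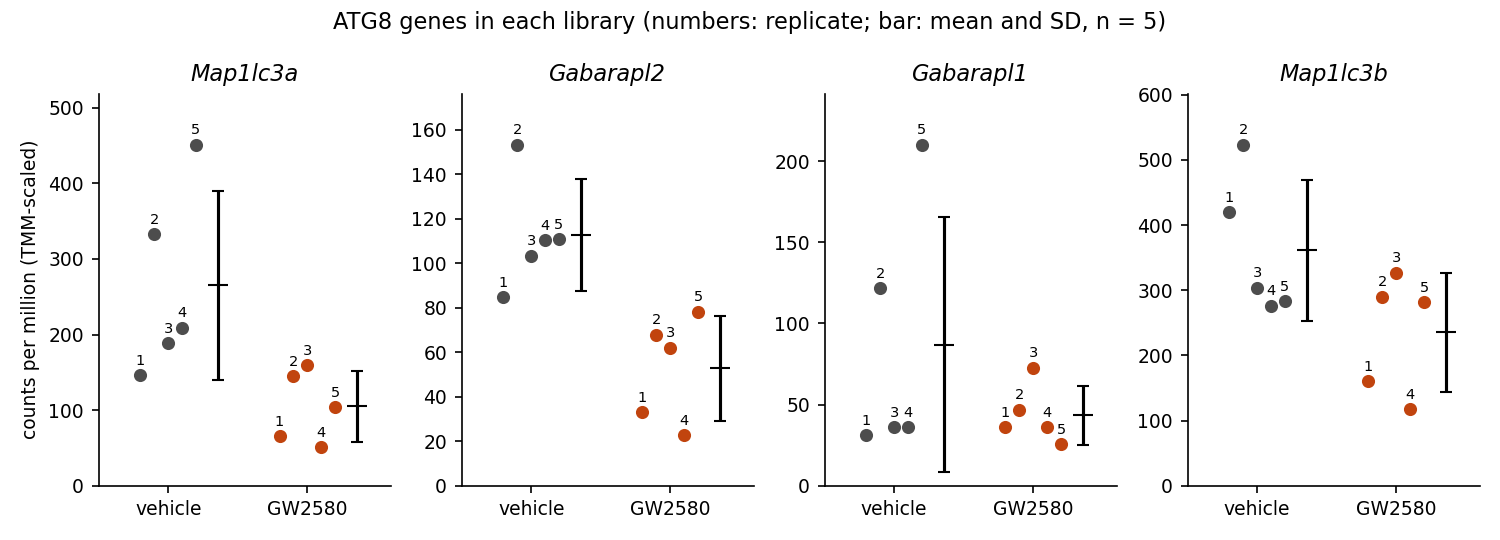
Level of the 4 measured ATG8 genes in each library, in CPM after TMM scaling, with separate axes that start at 0. Points are libraries labelled by replicate number, and the bar beside each group is the mean and SD (n = 5). Gabarapl2 alone has groups that do not overlap, and the 2 highest vehicle points of Map1lc3a and Gabarapl1 are vehicle 5 and vehicle 2.

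The called ATG8 genes were also read against the libraries that stand apart. Without vehicle 2 and vehicle 5, Map1lc3a had a log2 fold change of -0.80 (unadjusted p = 0.0787) and Gabarapl2 of -0.92 (unadjusted p = 0.0401), both under the fold threshold. With the mean glial and neuronal marker level as a term, both were still called, at -1.04 and -1.06. The share of uniquely aligned fragments that lay on no exon differed between libraries. It was 59.2, 52.0, 57.5, 59.8 and 47.7% in vehicle 1 to 5 and 68.0, 56.1, 47.1, 70.8 and 64.7% in GW2580 1 to 5. GW2580 1 and 4, with the highest shares, had the lowest Map1lc3a, Gabarapl2 and Map1lc3b values of the 10 libraries. With this share as a term neither gene was called, at log2 fold changes of -0.86 for Map1lc3a and -0.87 for Gabarapl2, although both kept an unadjusted p under 0.05 (0.0125 and 0.0275). The share used as a term left fragments on exons of several genes out of the total. GW2580 3 had the lowest share of all, with Gabarapl2 at 62.0 CPM, below every vehicle library, and Map1lc3a and Map1lc3b at 159 and 327 CPM, within the vehicle range. Vehicle 4 and vehicle 5 had nearly the same Gabarapl2 level at shares of 59.8 and 47.7%. These single libraries were named after their values were seen. The part of the off-exon share in the 2 genes' values was not tested beyond the fit with the share as a term.

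**Figure D3:**
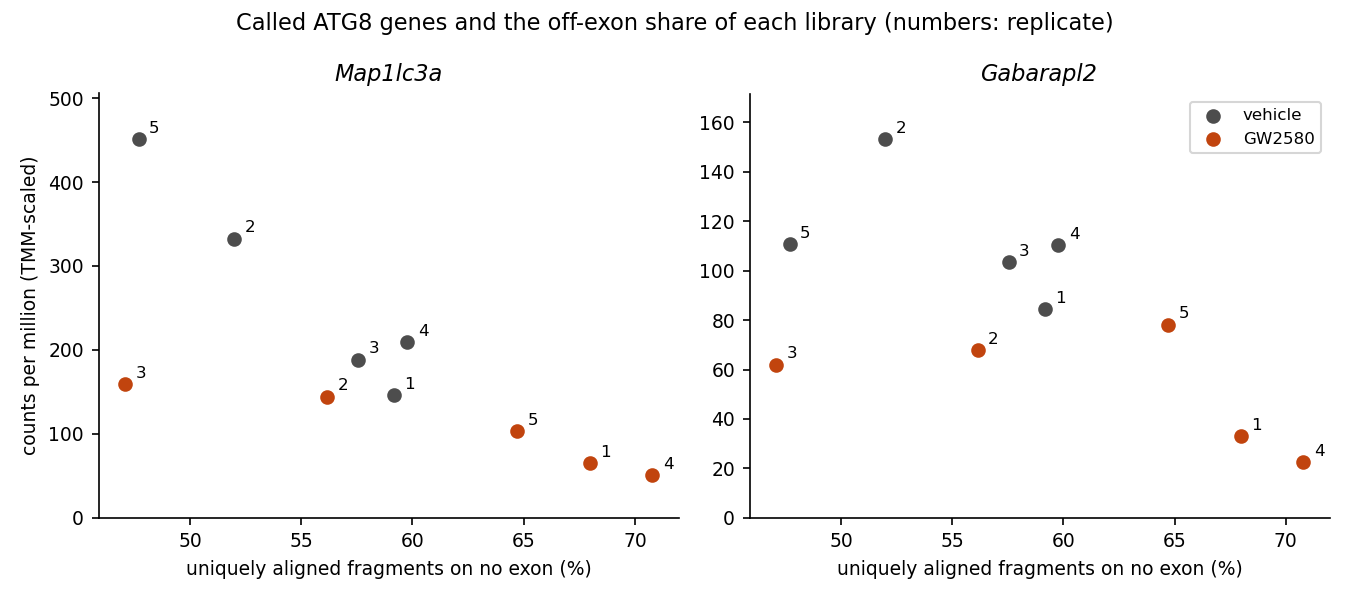
Level of Map1lc3a (left) and Gabarapl2 (right) in CPM after TMM scaling, plotted against the off-exon share in percent, for the 10 libraries labelled by replicate number. GW2580 1 and 4 lie at the lower right of both panels, at 68.0 and 70.8% off-exon fragments.

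The RefSeq promoter table holds 0 windows for the called gene Map1lc3a. The promoters of the other called gene, Gabarapl2, and of the 2 measured ATG8 genes not called are shown for comparison within the family. They are the 150 bases before the RefSeq transcription start (GRCm38.p6, plus strand), at chr8:111940553-111940702 for Gabarapl2, chr6:129533042-129533191 for Gabarapl1 and chr8:121590288-121590437 for Map1lc3b, 5′ to 3′, with GC boxes (GGGCGG or its reverse complement CCGCCC) in capitals.
Gabarapl2: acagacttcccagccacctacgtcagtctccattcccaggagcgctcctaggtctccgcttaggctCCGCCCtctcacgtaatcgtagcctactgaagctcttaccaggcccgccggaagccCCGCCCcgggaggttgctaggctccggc
Gabarapl1: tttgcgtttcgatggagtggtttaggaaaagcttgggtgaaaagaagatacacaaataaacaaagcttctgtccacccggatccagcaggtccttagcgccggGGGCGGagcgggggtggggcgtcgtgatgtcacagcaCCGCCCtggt
Map1lc3b: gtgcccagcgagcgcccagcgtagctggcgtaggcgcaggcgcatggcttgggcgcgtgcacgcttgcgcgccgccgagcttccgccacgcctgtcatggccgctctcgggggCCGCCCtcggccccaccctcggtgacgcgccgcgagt
All 3 hold a GC box, and none holds the palindrome CACGTG, the core of the element bound by the TFEB family of transcription factors, in the RefSeq promoter window, which also takes in the first transcribed bases. In that table, which holds 35 windows of 30 members, 20 member windows contained a GC box, against 35.7% of all 32851 windows, and 4 contained CACGTG, against 7.15%. These letters are a description and not a measured binding site.

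The members that attach ATG8 proteins to lipid form a ubiquitin-like system, in which ATG7 is the activating enzyme, ATG3 and ATG10 are the conjugating enzymes and ATG5 with ATG12 and ATG16L1 acts as the ligase. None of the 7 genes was called, and their log2 fold changes ran from -0.39 to 0.46 with a median of 0.01. Atg3, the member of this group with the highest level per kilobase, measured 125, 151, 105, 107 and 84.7 CPM in vehicle 1 to 5 and 70.1, 122, 123, 38.7 and 83.8 CPM in GW2580 1 to 5. The groups overlapped (log2 fold change -0.39, SE 0.35, unadjusted p = 0.292, edgeR). Atg7 measured 39.8 ± 25.4 CPM with vehicle and 45.5 ± 15.0 after GW2580, Atg5 measured 55.8 ± 12.3 and 53.5 ± 22.0, and Atg12 measured 33.03 ± 15.6 and 34.2 ± 13.2 (SD, n = 5 each). Atg16l1 had the largest value of the group, 33.2 ± 20.03 against 45.5 ± 21.7 CPM (unadjusted p = 0.294). Atg10 and Atg16l2 differed by 0.08 or less on the log2 scale. Atg3, Atg5 and Atg7 are 3 of the 4 members with CACGTG in the promoter window, with Atg14. Stretches of 66 bases around it are shown with CACGTG in capitals, on the plus strand and before the start that the promoter table gives. They lie at chr16:45158705-45158770 for Atg3, chr10:44268273-44268338 for Atg5 and chr6:114670934-114670999 for Atg7. The annotated genes begin at chr10:44268322 for Atg5 and chr6:114643127 for Atg7. The Atg5 stretch is therefore partly, and the Atg7 stretch wholly, inside the annotated gene.
Atg3: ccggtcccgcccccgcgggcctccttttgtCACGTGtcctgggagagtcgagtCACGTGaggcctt
Atg5: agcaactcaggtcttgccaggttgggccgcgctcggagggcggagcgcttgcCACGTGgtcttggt
Atg7: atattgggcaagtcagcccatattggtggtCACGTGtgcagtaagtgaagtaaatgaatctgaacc
Atg3 carries the palindrome at 2 places, and neither Atg3, Atg5 nor Atg7 passed the test.

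Of the 4 ATG4 proteases, which trim ATG8 proteins before lipid coupling and release them afterwards, 3 were tested and none was called. Atg4b, the most abundant per kilobase, measured 45.5, 41.7, 45.6, 41.0 and 83.1 CPM in vehicle 1 to 5 and 58.0, 58.8, 95.3, 46.3 and 36.5 CPM in GW2580 1 to 5. Its highest values were in vehicle 5 and GW2580 3 (log2 fold change 0.20, SE 0.34, unadjusted p = 0.565, edgeR). Atg4c and Atg4d had log2 fold changes of -0.13 and -0.14. Of the exon bases of Atg4d, 24.4% overlap the opposite-strand gene Kri1, and the counting did not use strand.

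The ULK complex starts autophagosome formation, with the kinases ULK1 and ULK2 and their partners ATG13, ATG101 and FIP200 (Rb1cc1). No gene of the 5 was called. Atg101, the most abundant per kilobase, measured 113, 124, 104, 135 and 56.3 CPM in vehicle 1 to 5 and 40.4, 119, 91.3, 25.4 and 81.7 CPM in GW2580 1 to 5. Vehicle 5 was lowest in its group, and GW2580 1 and 4 were lowest of all (log2 fold change -0.58, SE 0.42, unadjusted p = 0.192, edgeR). The kinase genes had estimates on opposite sides of 0. Ulk1 had a log2 fold change of -0.75 (unadjusted p = 0.204), carried by 122 CPM in vehicle 5 against 14.1 to 21.0 CPM in vehicle 1 to 4 and 13.0 to 38.2 CPM with GW2580. Without vehicle 5 its log2 fold change was 0.30. Ulk2 measured 92.4 ± 32.1 and 132 ± 43.4 CPM (log2 fold change 0.52, unadjusted p = 0.152), Rb1cc1 32.5 ± 18.7 and 46.8 ± 22.8 CPM, and Atg13 39.3 ± 39.5 and 40.0 ± 17.8 CPM (SD, n = 5 each).

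The class III PI3-kinase complexes join the lipid kinase VPS34 (Pik3c3) and its partner VPS15 (Pik3r4) to Beclin 1 (Becn1) and either ATG14 or UVRAG, and AMBRA1 regulates them. Of the 6 genes 0 were called, and 5 had an estimate above 0. Becn1 measured 65.8, 89.3, 67.7, 58.8 and 121 CPM in vehicle 1 to 5 and 74.7, 88.2, 134, 59.4 and 53.6 CPM in GW2580 1 to 5, a log2 fold change of 0.02 (SE 0.34, unadjusted p = 0.946, edgeR). Of its exon bases, 18.4% overlap the opposite-strand gene Cntd1. Atg14 had the largest estimate, 33.2 ± 18.7 against 48.9 ± 18.6 CPM (SD, n = 5 each, log2 fold change 0.56, unadjusted p = 0.163). Uvrag was at 0.38, Pik3r4 at 0.36, Ambra1 at 0.07 and Pik3c3 at -0.23 on the log2 scale, each with an unadjusted p over 0.3.

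Among the genes for lipid supply and membrane growth, VMP1 and ATG9A are membrane proteins that move or supply lipid, ATG2 proteins transfer lipid, and WIPI proteins bind the lipid that VPS34 makes. None of the 5 tested genes was called. Vmp1 measured 128, 122, 117, 116 and 142 CPM in vehicle 1 to 5 and 88.4, 115, 152, 52.4 and 136 CPM in GW2580 1 to 5. Its vehicle libraries were the closest of any member relative to their mean (125 ± 10.8 CPM, a coefficient of variation of 8.63%), and its GW2580 libraries spread on both sides of them (unadjusted p = 0.551). Wipi1 measured 15.5, 19.5, 14.0, 21.0 and 14.9 CPM in vehicle 1 to 5 and 8.88, 15.9, 13.5, 10.3 and 8.33 CPM in GW2580 1 to 5, with 4 of the 5 GW2580 libraries below every vehicle library. Its log2 fold change was -0.58 (SE 0.28, unadjusted p = 0.0612, adjusted p = 0.357, edgeR), and the exact permutation p was 0.0397 (0.329 adjusted over all genes). Wipi2, Atg9a and Atg2b had log2 fold changes of -0.24, 0.08 and 0.03.

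The cargo receptors p62 (Sqstm1), NBR1 and optineurin (Optn) bind ubiquitin on cargo and ATG8 on the membrane. None was called. Sqstm1, the most abundant of them per kilobase, measured 336, 309, 321, 240.0 and 687 CPM in vehicle 1 to 5 and 470.1, 568, 981, 273 and 288 CPM in GW2580 1 to 5. The highest values were those of GW2580 3 and vehicle 5, and the log2 fold change was 0.45 (SE 0.44, unadjusted p = 0.326, edgeR). Nbr1 measured 34.9, 32.1, 35.2, 31.7 and 185 CPM in vehicle 1 to 5 and 106, 40.7, 151, 93.7 and 31.3 CPM in GW2580 1 to 5. Its libraries formed a low set at 31.3 to 40.7 CPM and a high set at 93.7 to 185 CPM, and the high set held vehicle 5 and GW2580 1, 3 and 4. Optn measured 14.7 ± 5.86 and 13.4 ± 3.79 CPM (SD, n = 5 each).

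Levels per kilobase of exon ranked the members. In vehicle libraries Map1lc3a was highest at 254 ± 120 CPM per kb, then Sqstm1 at 187 ± 86.9, Map1lc3b at 141 ± 42.1 and Gabarapl2 at 115 ± 25.7, and neighbours in this order differed by less than the larger of their SDs. Atg3 at 56.9 ± 12.4 and Atg101 at 56.3 ± 16.1 CPM per kb followed. The lowest were Atg4c at 1.59 ± 0.812 and Atg2b at 2.6 ± 0.698 CPM per kb. With GW2580 Sqstm1 stood at 254 ± 142 CPM per kb and Map1lc3a at 100.3 ± 45.4.

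Vehicle 5 stood apart from the other vehicle libraries in much of the machinery. It was the highest vehicle library for 26 of the 33 members and the lowest for 4 (Atg3, Atg5, Atg10 and Atg101). Over all genes tested it was the highest vehicle library for 36.9% and the lowest for 40.4%. Its value was more than 2 times the mean of vehicle 1 to 4 for 19 members (57.6%), against 22.3% of all genes tested, and the median ratio was 2.28 for the members and 0.916 for all genes. The ratio was largest for Ulk1 (6.36), Nbr1 (5.52), Atg13 (5.08), Pik3r4 (4.79) and Ambra1 (4.57), named after their values were seen, and smallest for Atg101 (0.472). Vehicle 1 to 4 were close together, with a median coefficient of variation of 14.1% over the members, against 47.1% with vehicle 5 included and 41.0% over the GW2580 libraries. Among the GW2580 libraries, GW2580 3 was the highest for 27 members, a count with no share over all genes beside it. Vehicle 5 and GW2580 3 also had the lowest off-exon shares, 47.7 and 47.1%. Vehicle 5 had the lowest summed microglia marker level, 12090 CPM, and GW2580 3 the highest, 56236 CPM. The part of these differences between libraries in the members' values was not tested beyond the fits with a term or without a library.

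**Figure D4:**
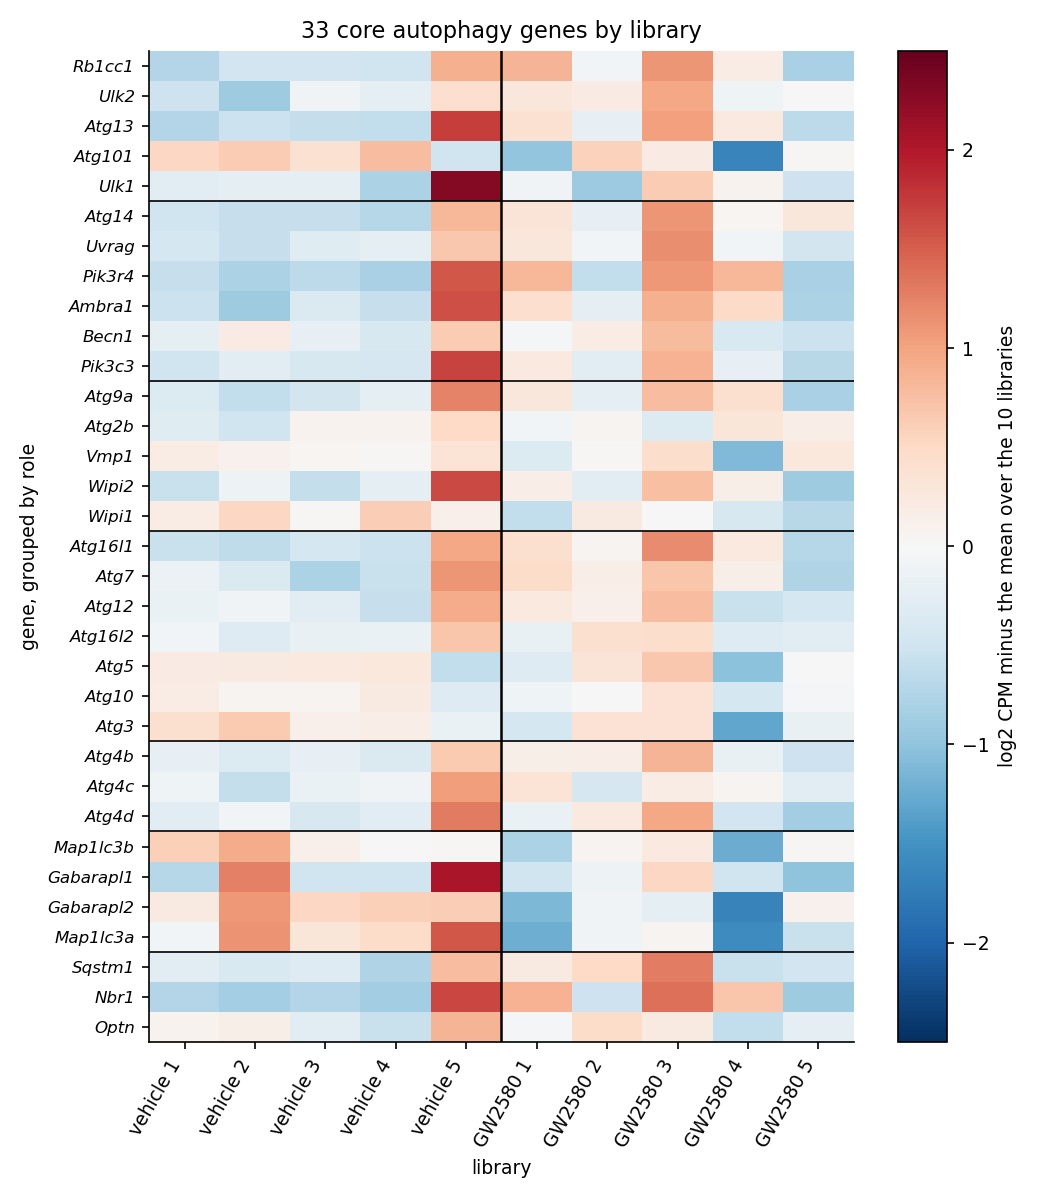
Log2 CPM of the 33 tested members in each library minus the gene's mean over the 10 libraries, with genes grouped by role (horizontal lines) and vehicle to the left of the vertical line. Red is above and blue below the mean. The vehicle 5 column is red for most genes, and the GW2580 3 column is the reddest on the right.

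The outcome changed with vehicle 5. Without it, 12 of the 33 members had an unadjusted p under 0.05, against 22.3% of the 28120 genes then tested, 9 of them higher and 3 lower after GW2580. Called higher were Nbr1 (log2 fold change 1.34, unadjusted p = 0.00629) and Pik3r4 (1.18, unadjusted p = 0.00777), against 6.18% of all genes, and called lower were still Map1lc3a and Gabarapl2, against 6.74%. Atg14, Rb1cc1, Atg16l1, Atg13, Ambra1, Ulk2 and Atg7 had log2 fold changes from 0.67 to 0.98, and Wipi1 was at -0.62. No adjusted p of a member passed 0.05 there, and the lowest was 0.163. The members' median log2 fold change was then 0.33, against 0.05 over all genes. Without vehicle 2 and vehicle 5, Nbr1 and Pik3r4 were the 2 members called higher, against 5.09% of all genes, 0 were called lower, and 7 had an unadjusted p under 0.05, against 14.1%. Both fits leave out vehicle 5, whose Nbr1 and Pik3r4 values were 5.52 and 4.79 times the mean of vehicle 1 to 4. Leaving it out raises these fold changes by construction, so their p-values are not support for a change. GW2580 3 was kept in both fits. It lay above all of vehicle 1 to 4 for 25 members, against 35.8% of all genes tested. It lay below all of them for 3 members, against 34.0%.

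The 2 called members are the shortest of the 33, with 980 exon bases for Gabarapl2 and 1045 for Map1lc3a. Of all tested genes no longer than Map1lc3a, 6.9% were called lower. Across the 33 members, Spearman's rho between exon length and log2 fold change was 0.43, against 0.01 over all 28419 genes, and genes within a library are not independent replicates. The members longer than 1500 and up to 3000 bases had a median log2 fold change of -0.39 (9 genes) and those longer than 3000 and up to 6000 bases of 0.08 (16 genes), against -0.11 and -0.02 for all genes of those lengths. A limma-trend fit with the length trend of each library removed had Map1lc3a and Gabarapl2 past the same thresholds, at -1.31 and -1.17. The values to set beside these are those of limma-trend without that removal, -1.35 and -1.21, and not the edgeR values. The trend removed was that of all genes, whose fold changes hardly followed length (rho 0.01), so this fit could move the 2 estimates little. The part of length in the members' values was not tested.

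**Figure D5:**
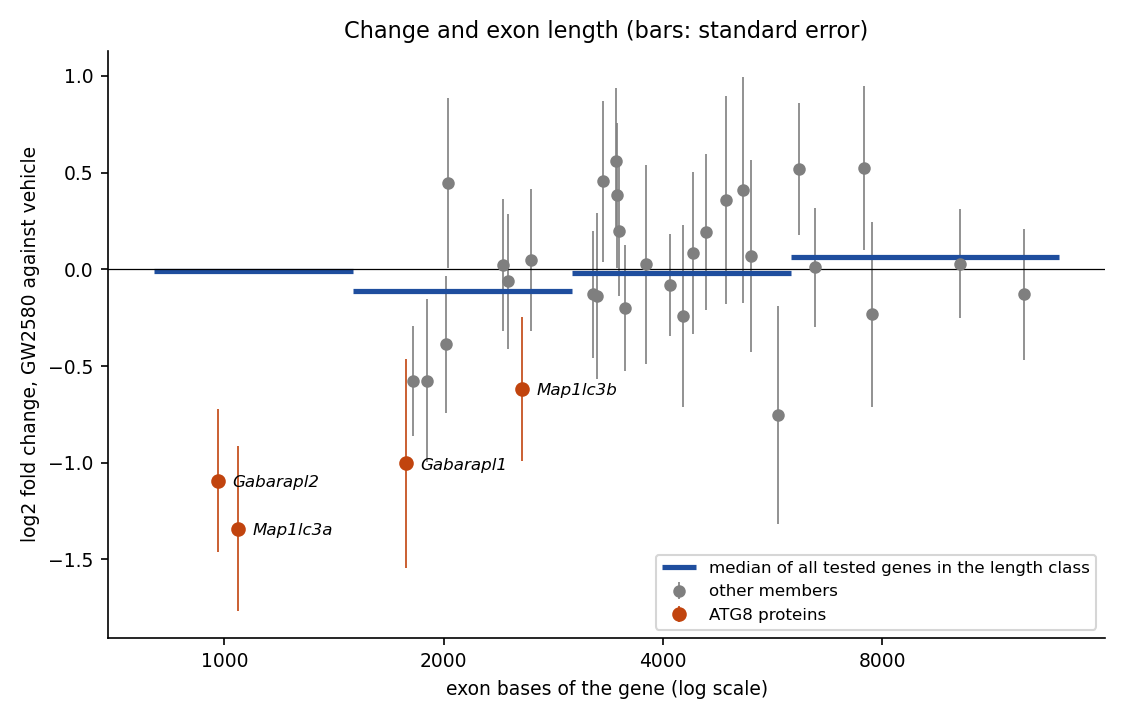
Log2 fold change of GW2580 against vehicle for the 33 tested members plotted against exon bases on a log axis, with standard errors, and the median of all tested genes in each of 4 length classes as a blue line. The 2 called members, Gabarapl2 and Map1lc3a, lie at the far left at -1.09 and -1.34, while the median of all genes in that class is -0.01.

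Gabarap, Epg5, Atg2a and Atg4a could not be followed. GABARAP is an ATG8 protein, EPG5 tethers the autophagosome to the lysosome, ATG2A transfers lipid and ATG4A is an ATG8 protease. Gabarap had 0 fragments in all 10 libraries, Atg4a had 16 in all, Epg5 had 20, of which 17 were in vehicle 5, and Atg2a had 35, of which 26 were in vehicle 5. These are the 4 members whose exons the annotation lists on a second sequence of the assembly besides the chromosome. Fragments that aligned to more than 1 place were not counted. The other 33 members are listed on 1 sequence and had at least 2289 fragments each. Over all genes, the median total was 9 for the 1867 listed on more than 1 sequence and 263 for the 44285 listed on 1. The near-zero counts of these 4 genes are therefore not read as low expression. The pseudogene Atg4a-ps held 308 fragments.

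Around the core machinery, 58 of 60 further autophagy genes in 5 lists were tested. Called higher was 1 gene of the 58, against 4.01% of all genes: Tfec of the TFEB family, at 2.37 ± 1.01 CPM in vehicle libraries and 4.97 ± 0.442 CPM after GW2580 (SD, n = 5 each, log2 fold change 1.07, unadjusted p = 0.00876, adjusted p = 0.280, edgeR), and 0 were called lower. Tfe3, which encodes a factor of the same family that drives lysosomal and autophagy genes, was at 86.5 ± 8.89 and 173 ± 105 CPM (fold change just under 2, unadjusted p = 0.0218). The median over the 7 genes of that list was 0.41. Of the 17 mTORC1 and AMPK genes, which control the ULK complex, Lamtor1 had an unadjusted p under 0.05 (204 ± 49.1 against 106 ± 54.0 CPM, exact permutation p = 0.0238), and the list's median was -0.11. None of the 12 tested genes for fusion with the lysosome (median 0.37), of the 12 other selective receptors (median -0.34) or of the 10 other formation factors (median 0.09) had an unadjusted p under 0.05. Whether treatment acted differently in male and female mice was tested with an interaction term, and no member had an unadjusted p under 0.05 (lowest 0.300, for Ambra1), while 717 of the 28419 genes did and 0 passed adjustment (edgeR).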

How the data were processed

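RNA of CD11b+ cells from 10 mice was sequenced after SMART-Seq v4 amplification. The authors trimmed the reads (Trimmomatic 0.33), aligned them to GRCm38 (STAR 2.6.0) and counted fragments on RefSeq exons without strand. The counts were deposited without normalization. Per the file headers the counter was featureCounts 1.6.3, and the study's methods name Subread 1.5.2. The deposited files also give each gene's length and the fragments on no exon.

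Groups, sex and replicate numbers came from the labels. The filter kept genes over 1 CPM in 3 or more libraries, which were scaled by TMM and tested with edgeR 4.0.16 in R 4.3.3 (quasi-likelihood, treatment as the only term). Single genes were also tested by exact permutation of log2 CPM (prior count 2). The fit was tested on simulated data. Each log2 fold change is GW2580 against vehicle, and its standard error was derived from the F value. Levels per kilobase divide CPM by the deposited exon length.

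Alternatives used DESeq2 1.42.0, limma 3.58.1, other scalings, filters and terms, and fits without libraries. The 37 members and the gene lists were chosen with earlier results of these data known. Members with an unadjusted p under 0.05, and the member of highest CPM per kilobase in each of the 7 role groups with a tested gene, were given in every library, and genes outside this rule (Wipi1, Gabarapl1, Map1lc3b, Nbr1, Ulk1, Pik3r4) were named after their values were seen. Depth per library limits counting error only, as PCR copies were not separated from molecules, and p-values rest on the spread between mice. Promoters came from RefSeq (GRCm38.p6), with 30 of 37 members matched. Protein sequences were not used here.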

Additional observations from a re-analysis of the deposited data

Results flagged for a closer look

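Within each group of 5 libraries, the highest and lowest log2 CPM of each tested member was compared with the rest by Dixon's ratio (critical value 0.71). Of 66 groups, 16 held a library that stood apart, and in all 16 it was vehicle 5, above the other 4 vehicle libraries for 15 genes and below them for Atg5. Chance flags about 1 in 20 groups, and genes of one library are not independent of each other. Over all genes tested, vehicle 5 lay above vehicle 1 to 4 for 36.9% and below them for 40.4%. Its standing apart is thus not particular to the members, and the share of all genes past Dixon's ratio is not given here.

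In the ULK complex, vehicle 5 stood apart at 109.8 CPM for Atg13, 122 CPM for Ulk1 and 65.8 CPM for Rb1cc1. In the class III PI3-kinase complexes it did so at 66.6 CPM for Atg14, 113 CPM for Pik3c3, 55.2 CPM for Pik3r4, 80.3 CPM for Ambra1 and 101 CPM for Uvrag. Among the genes for membrane growth it did so at 91.1 CPM for Atg9a and 142 CPM for Wipi2. Of the conjugation genes, Atg5 was at 33.8 CPM, against 60.1 to 62.6 CPM in vehicle 1 to 4, Atg16l1 was at 68.9 CPM and Atg16l2 at 53.4 CPM. The proteases Atg4b and Atg4d were at 83.1 and 84.4 CPM, and the cargo receptor Nbr1 was at 185 CPM.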

How the results depend on the processing

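Each result was recomputed under 25 alternatives, 10 of which leave out 1 library. The counts of called members were also taken at other thresholds, which are not among the 25. The 2 members called lower became 1 with library size scaling or an unadjusted p under 0.01, and 0 with the off-exon share as a term or without vehicle 2 and vehicle 5. Leaving out 1 library gave 1 to 3 members called lower and 0 to 2 called higher: 1 lower without vehicle 2, GW2580 1 or GW2580 4, and 2 higher without vehicle 5. Without vehicle 2 and vehicle 5, 2 members were called higher. DESeq2 and the fit with no filter added Atg4a, one of the genes annotated on a second sequence, to make 3 lower. Across all alternatives, Map1lc3a ranged from -1.54 to -0.80 and Gabarapl2 from -1.35 to -0.87 on the log2 scale, with adjusted p from 0.0842 to 0.642 and from 0.0910 to 0.642.

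The members' median log2 fold change, 0.01 in the fit reported, ranged from -0.19 without GW2580 3 to 0.38 without vehicle 2 and vehicle 5, and was 0.33 without vehicle 5. Library size scaling moved the median of all genes to 0.23 and that of the members to 0.20. Of 825 values of single members under alternatives, none changed sign with a call, 8 lost a call, 7 gained one and 82 changed sign with no call in either fit, so the sign of an uncalled member is not firm for the 17 genes concerned.

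Replicate numbers did not pair the samples (correlations of same-numbered libraries from -0.392 to 0.135), and the fit with the replicate number as a block called 2 members lower and 0 higher, with a median of 0.04.

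Each tested member had at least 2289 fragments in all, and the lowest count in a single library was 123, for Wipi1.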
